A study of Homo sapiens with 24 samples.

Results

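The detained introns of 4 genes, TAF1D, NRDE2, SHPK and SRRM1, were followed in HEK293T cells treated with an inhibitor of either enzyme of O-GlcNAc cycling. The members are all bins that the deposited tables assign to these gene names: 83 of 164219 bins, in 4 of 13236 gene groups. Of the 83 bins, 7 are marked by the authors as detained introns, out of 4769 in 3150 genes. TAF1D has 2 of them among 16 bins, NRDE2 2 among 17, SHPK 1 among 26 and SRRM1 2 among 24. In each gene 1 intron was of interest, namely TAF1D_E008, NRDE2_E003, SHPK_E021 and SRRM1_E019 (gene and bin number as in the tables). They were chosen by their change in share under OSMI-2 and TMG in these same libraries, so those comparisons are a description of the members. Counts of members past a threshold in fits over all introns are printed below beside the share of all introns past it, and support nothing about the members.

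HEK293T is an established human embryonic kidney line that carries the SV40 large T antigen. Cells received 10 µM OSMI-2, an inhibitor of OGT, the enzyme that adds O-GlcNAc to nuclear and cytoplasmic proteins, or 5 µM TMG, an inhibitor of OGA, the enzyme that removes it. Treatment lasted 2 h or 6 h, and each drug and time had DMSO (solvent) libraries of its own. Polyadenylated RNA was sequenced from 3 libraries in each of 7 groups and from 2 libraries of the OSMI-2 6 h group, in which 1 more labelled sample was not analysed here. Nothing in the labels says whether libraries of a group came from separate cultures, so the spread given here may be technical. The identity of the cell line was not checked against marker genes.

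A detained intron is one that stays in an otherwise spliced, polyadenylated transcript, which is held in the nucleus rather than exported for translation. Such transcripts may later be spliced fully or be degraded, and OGT and OGA themselves are known to carry detained introns whose splicing responds to O-GlcNAc. TAF1D is a subunit of the selectivity factor SL1, which brings RNA polymerase I to ribosomal RNA genes, and its gene also hosts small nucleolar RNAs. NRDE2 is a nuclear protein that binds the helicase MTR4, a cofactor of the RNA exosome. SHPK, sedoheptulokinase, phosphorylates sedoheptulose and so feeds the pentose phosphate pathway. SRRM1 is an SR-related splicing coactivator found with the exon junction complex.

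In the hg19 coordinates of the tables, TAF1D_E008 lies at chr11:93466586-93467790 on the minus strand and spans 1205 bases. NRDE2_E003 lies at chr14:90745478-90752697 on the minus strand and spans 7220 bases. SHPK_E021 lies at chr17:3518832-3524530 on the minus strand and spans 5699 bases. SRRM1_E019 lies at chr1:24989716-24993305 on the plus strand and spans 3590 bases. The other members are TAF1D_E010 at chr11:93467827-93468128 (302 bases), NRDE2_E005 at chr14:90752837-90754560 (1724 bases) and SRRM1_E005 at chr1:24974625-24975349 (725 bases). All of the 7 but SRRM1_E005 had the width of 1 intron of the same gene in GENCODE v29, and for all of these but TAF1D_E010 the exons on both sides matched as well. Both TAF1D introns were matched to TAF1D-222, which GENCODE lists as a processed transcript and not as protein coding. For NRDE2_E003, NRDE2_E005, SHPK_E021 and SRRM1_E019 the matching transcripts included a protein-coding one.

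The 4 introns of interest thus differ in length and in what surrounds them. The sequences below show where each is removed. They are the junctions left in GENCODE v29 transcripts once the intron is gone, with the last bases of the exon before in lower case and the first bases of the exon after in capitals, 5′ to 3′ on the gene's strand.
TAF1D_E008: tgtctggagttaaagATAATCTACTTTTTT
NRDE2_E003: tatttgaactttctgGTTTCCTTAGGAAAT
SHPK_E021: agaggacagatgcagTTCTCAACATCAGCA
SRRM1_E019: gccagtgactaaaagTGGTAGACGGAGGAG

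The TAF1D introns are the ones whose own sequence could be read, because GENCODE holds TAF1D transcripts that retain them whole. The edges of both are shown with the first and last 2 bases of the intron in capitals. Each starts with GT and ends with AG, the usual splice site letters.
TAF1D_E008 start: aagGTatgtctcaat
TAF1D_E008 end: gttgctaaacgttatgaaaaaccAGata
TAF1D_E010 start: aaaGTaagaaacaca
TAF1D_E010 end: tacacaatggctttttgttttaaAGgct

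GC content was 35.4% in TAF1D_E008 and 42.1% in TAF1D_E010. In GENCODE, TAF1D_E008 contains the small nucleolar RNA SNORA18 and the microRNA gene MIR1304. SHPK_E021 contains the processed pseudogene AC027796.2 and overlaps the readthrough gene AC027796.3, all on the same strand, so reads from these could not be told from reads of the intron. No gene on the opposite strand overlapped any of the 6 matched introns. NRDE2_E003 and NRDE2_E005 are neighbours, separated by the 139-base exon bin NRDE2_E004.

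Libraries held between 39.5 M and 100.2 M counts in all, M standing for mega. The share of all counts that fell in detained introns was 0.756% to 1.21% in the DMSO 6 h libraries of the OSMI-2 experiment, against 0.239% to 0.276% in the DMSO 2 h libraries of the same experiment and 0.286% to 0.328% under OSMI-2 at 6 h. In the TMG experiment it was 0.377% to 0.443% in DMSO and 0.475% to 0.543% in TMG at 2 h, and 0.462% to 0.669% and 0.580% to 0.668% at 6 h. The DMSO 6 h group of the OSMI-2 experiment thus stood apart from the other DMSO groups over all detained introns. This touches every OSMI-2 6 h value below, and its part in them was not tested. In bulk samples, fewer cells and less RNA per cell cannot be told apart.

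The share of an intron is its count as a percent of the counts in its gene's bins outside detained introns, library by library. Libraries are listed in the order of their letters a, b and c.

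TAF1D_E008 had the highest share of the 4 introns of interest. In the OSMI-2 experiment it was 7.94, 9.96 and 10.0% in DMSO and 10.7, 8.69 and 8.56% in OSMI-2 at 2 h, and the groups overlapped. At 6 h it was 13.9, 14.1 and 15% in DMSO and 10.3 and 9.44% in OSMI-2. Both OSMI-2 libraries were below all 3 DMSO libraries at 6 h, and they lay within the range of the 2 h libraries.

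In the TMG experiment TAF1D_E008 was at 11.9, 15.3 and 13.8% in DMSO and 17.6, 16.3 and 16.5% in TMG at 2 h, with all 3 TMG libraries above all 3 DMSO libraries. After 6 h the values were 11.5, 15.5 and 12.6% in DMSO and 14.9, 14.4 and 14.5% in TMG, and DMSO library b was the highest of the 6. The log2 change of share was 0.00 ± 0.16 (SE) and -0.54 ± 0.26 for OSMI-2 at 2 h and 6 h, and 0.30 ± 0.09 and 0.15 ± 0.15 for TMG at 2 h and 6 h.

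The neighbouring TAF1D_E010 was steadier. Its share lay between 4.05% and 6.44% over all 23 libraries. At OSMI-2 6 h it was 5.88 and 4.43% against 4.94, 5.75 and 5.03% in DMSO, a log2 change of -0.03 ± 0.31. At TMG 2 h the 3 TMG libraries, at 6.44, 6.14 and 5.78%, lay above the DMSO libraries at 5.11, 5.53 and 5.18%, a log2 change of 0.21 ± 0.12.

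NRDE2_E003 showed the widest gap between 1 group and the rest. In the OSMI-2 experiment it was 4.28, 4.29 and 3.83% in DMSO and 2.65, 3.65 and 4.20% in OSMI-2 at 2 h. The 6 h values were 12.2, 13.8 and 10.9% in DMSO and 3.99 and 3.35% in OSMI-2. The 3 DMSO 6 h libraries were above all 20 others, and the OSMI-2 6 h libraries were in the range of the 2 h libraries.

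In the TMG experiment NRDE2_E003 was 1.68, 2.00 and 1.58% in DMSO and 3.10, 2.88 and 2.24% in TMG at 2 h, with no overlap. At the later time it was 3.40, 3.43 and 2.21% in DMSO and 3.44, 3.72 and 3.55% in TMG, again without overlap, the closest pair being 3.43% and 3.44%. Log2 changes were -0.26 ± 0.22 and -1.72 ± 0.30 for OSMI-2 at 2 h and 6 h, and 0.62 ± 0.22 and 0.26 ± 0.27 for TMG. NRDE2_E005, the next intron towards the 5′ end, had lower shares, 2.79, 3.53 and 2.93% in DMSO against 1.04 and 1.16% in OSMI-2 at 6 h. Its log2 change there was -1.42 ± 0.36, and at TMG 2 h it was 0.22 ± 0.27 with overlapping groups.

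SHPK_E021 rested on few reads, 14 to 119 counts a library. In the OSMI-2 experiment its share was 1.31, 1.61 and 0.808% in DMSO and 0.521, 0.721 and 0.900% in OSMI-2 at 2 h, which overlapped. At 6 h it was 3.74, 3.60 and 2.17% in DMSO and 1.08 and 1.07% in OSMI-2. The lowest DMSO 6 h library, c, was still above both OSMI-2 libraries.

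In the TMG experiment SHPK_E021 was 1.09, 1.31 and 0.997% in DMSO and 2.15, 2.89 and 2.36% in TMG at 2 h, without overlap. At 6 h the DMSO libraries spread from 1.71 to 3.81% and held the TMG libraries, at 2.25, 3.19 and 3.25%, within their range. Log2 changes were -0.78 ± 0.29 and -1.50 ± 0.32 for OSMI-2, and 1.09 ± 0.24 and 0.15 ± 0.27 for TMG, at 2 h and 6 h.

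The SHPK group of the tables also holds its neighbour TRPV1, a heat- and capsaicin-gated cation channel. By exon width in GENCODE, 14 of its bins match TRPV1 alone, 5 match SHPK alone and 6 match neither or both. The TRPV1 bins took 15% to 29.5% of the group's counts outside the intron. Against the 5 SHPK bins alone, SHPK_E021 averaged 13.8% ± 3.65 (SD, n = 3) in DMSO and 3.73% ± 0.205 (n = 2) in OSMI-2 at 6 h, and 4.31% ± 0.678 and 9.95% ± 2.36 (n = 3 each) in DMSO and TMG at 2 h. The direction was thus the same with either denominator, and the log2 changes became -1.84 and 1.15.

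SRRM1_E019 was the least retained of the 4, with 8 to 101 counts a library. In the OSMI-2 experiment its share was 0.220, 0.371 and 0.165% in DMSO and 0.178, 0.131 and 0.119% in OSMI-2 at 2 h. After 6 h it was 1.10, 0.891 and 0.50% in DMSO and 0.169 and 0.127% in OSMI-2. The DMSO 6 h libraries differed among themselves, yet the lowest of them was above both OSMI-2 libraries.

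In the TMG experiment SRRM1_E019 was 0.501, 0.397 and 0.572% in DMSO and 0.956, 0.814 and 0.847% in TMG at 2 h, without overlap. By 6 h it was 0.493, 0.771 and 0.621% in DMSO and 0.639, 0.987 and 0.779% in TMG, with overlap. Log2 changes were -0.75 ± 0.37 and -2.37 ± 0.35 for OSMI-2, and 0.83 ± 0.18 and 0.34 ± 0.25 for TMG, at 2 h and 6 h.

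SRRM1_E005 moved differently from SRRM1_E019 between experiments. Its share was 0.142% to 0.242% in the 6 libraries of the OSMI-2 experiment at 2 h, and 1.53, 0.998 and 0.815% in DMSO against 0.200 and 0.254% in OSMI-2 at 6 h. In the TMG experiment it was 1.26% or more in all 12 libraries. The log2 change was -2.21 ± 0.33 at OSMI-2 6 h, 0.15 ± 0.15 at TMG 2 h and 0.47 ± 0.21 at TMG 6 h. The bin below it, SRRM1_E004, does not abut it. That bin averaged 0.469% in DMSO and 0.215% in OSMI-2 at 6 h.

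**Figure D1:**
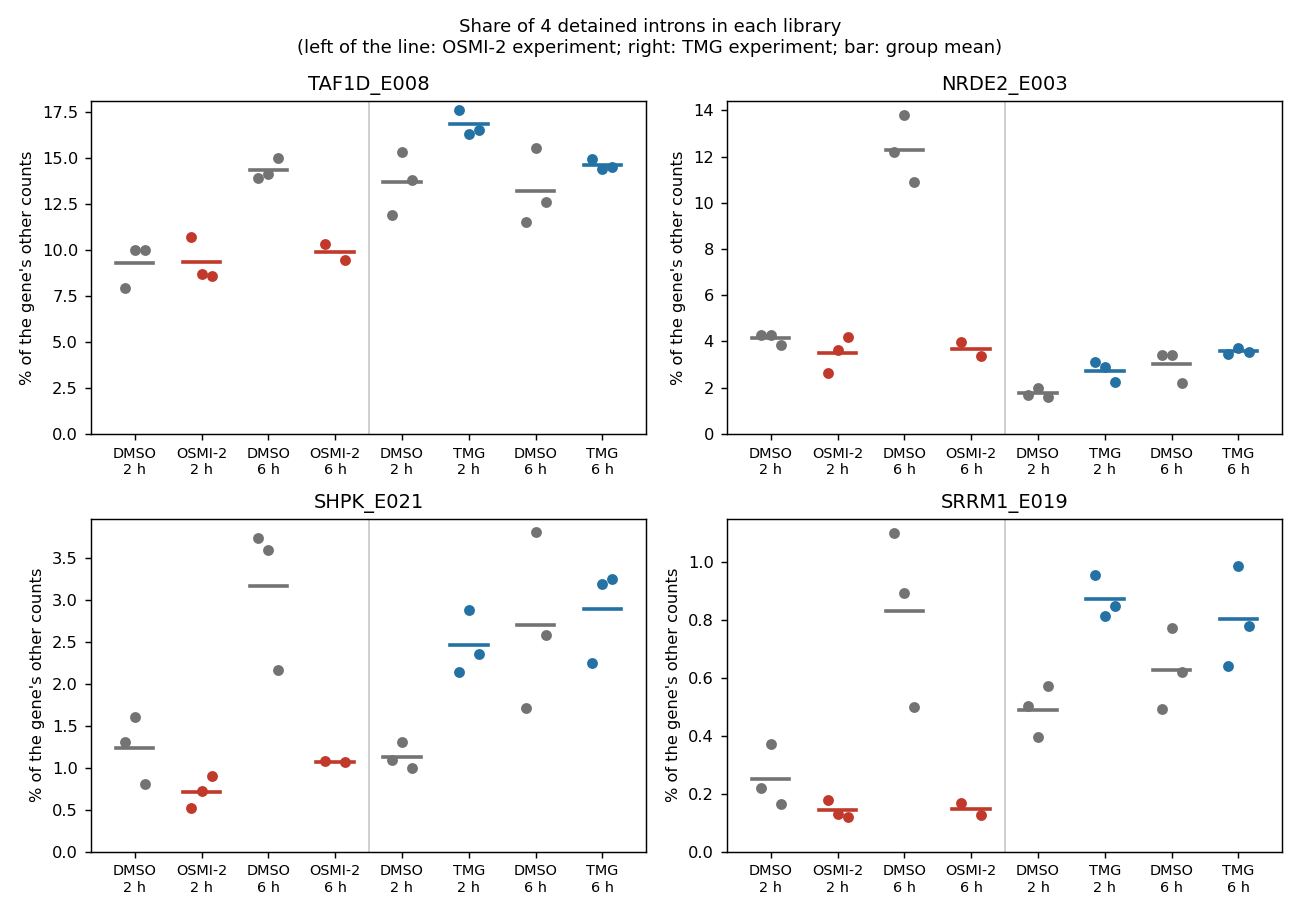
Share of TAF1D_E008, NRDE2_E003, SHPK_E021 and SRRM1_E019 in each library (y axis, percent of the gene's other counts, from 0) by drug and time (x axis), with 1 point per library and a bar at the group mean. The DMSO 6 h libraries of the OSMI-2 experiment sit above both OSMI-2 6 h libraries in all 4 panels, and the TMG 2 h libraries sit above their DMSO libraries.

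The order of the groups by mean share was not the same for the 4 introns. For NRDE2_E003 it ran from 1.75% in DMSO 2 h of the TMG experiment to 12.3% in DMSO 6 h of the OSMI-2 experiment, and among groups next to each other in that order, only the lowest pair and the highest pair did not overlap. For SHPK_E021 the order began with OSMI-2 2 h at 0.714%, and the top 4 groups, from 2.47% to 3.17%, overlapped each next one. For SRRM1_E019 the lowest mean was 0.143% in OSMI-2 2 h. Across all 23 libraries, log2 shares of SHPK_E021 and SRRM1_E019 had a Pearson correlation of 0.87. It was 0.86 for TAF1D_E008 and SRRM1_E019, and -0.02 for TAF1D_E008 and NRDE2_E003. These points share libraries and treatment groups, and the values are a description.

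Levels per base were far apart as well. Counts per base in the intron, as a percent of those in the gene's other bins, averaged 15.6% to 28.2% over groups for TAF1D_E008 and 30.6% to 41.0% for TAF1D_E010. They averaged 1.0% to 7.02% for NRDE2_E003, 1.65% to 7.35% for SHPK_E021 and 0.164% to 0.998% for SRRM1_E019. For SHPK_E021 the other bins are those of the whole group, with TRPV1 bins and the 6668-base bin SHPK_E017. Its values are therefore not relative to SHPK alone. TAF1D_E008 and TAF1D_E010 were thus the most densely covered of the 7 relative to their gene, and SRRM1_E019 the least.

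At OSMI-2 6 h most detained introns of the table were lower relative to their gene. By limma on the log2 share, 4 of 4 introns of interest and 6 of all 7 members passed an adjusted p of 0.05 and were lower, where 89.2% of the 4616 introns tested were. The introns of interest were chosen on these values, so nothing is read from their count. As counts, by edgeR's quasi-likelihood test, the same numbers of members passed as lower, 4 and 6, where 86.3% of introns did. The groups did not overlap for 6 of the 7, against 91.6% of all introns. The median log2 change was -1.50 over the 7 members and -1.63 over all introns. TAF1D_E008, at -0.54, had a larger value than 91.4% of all introns, and TAF1D_E010, at -0.03, than 97.0%. TAF1D_E008 did not pass without DMSO library b, OSMI-2 library a or OSMI-2 library b, nor with limma's default trend of the spread. As counts, TAF1D_E008 did not pass with median-of-ratios scaling or DESeq2, nor without DMSO library a or OSMI-2 library a (1 OSMI-2 library left). Scaling by TMM over introns only turned its log2 change to 0.77, where it passed as higher, and that of SHPK_E021 to 0.31. With that scaling NRDE2_E003, SHPK_E021 and SRRM1_E019 did not pass.

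At OSMI-2 2 h, 0 of the 7 passed, and 0.0643% of 3111 introns passed as lower. The median was -0.26 over the members and -0.08 over all introns. SHPK_E021 and SRRM1_E019 had log2 changes below those of 98.7% and 98.5% of introns, from few counts and with overlapping groups.

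At TMG 2 h, TAF1D_E008, SHPK_E021 and SRRM1_E019 passed as higher, 3 of 7 members, where 10.2% of 4031 introns did. The choice of the introns of interest used these values too, so their counts, ranks among all introns and lack of overlap at TMG 2 h only describe what was chosen. The count depends on how the spread is modelled and on which libraries enter the fit. With the spread tied to an intron's count, the setting adopted after both had been run on these tables, 412 introns passed in all. With limma's default, which ties it to the mean log2 share, 5 introns passed and none of the 4 introns of interest did. In a fit of all libraries 6 introns passed, again with none of the 4. edgeR's quasi-likelihood test on intron counts, which uses neither, called all 4 introns of interest higher, where 9.69% of introns were. It called 1 of them with TMM over introns only, and DESeq2 called 2. Without DMSO library c or TMG library b it called 2, and without DMSO library a or TMG library a 3. Counts are not relative to the gene, and the TAF1D and NRDE2 genes had log2 changes of 0.26 and 0.21 there. The median log2 change was 0.30 over the members and 0.30 over all introns. SHPK_E021 had a larger change than 99.2% and SRRM1_E019 than 95.6% of introns, NRDE2_E003 than 86.4% and TAF1D_E008 than 50.3%. Of the 7 members, 5 had groups that did not overlap, all higher, against 30.7% of all introns. TAF1D_E008 did not pass without DMSO library a or DMSO library c, nor with its flanking bins as the gene value. Of those bins, TAF1D_E007 went from 7.70% in DMSO to 8.44% in TMG and TAF1D_E009 from 5.39% to 5.36%. Without TMG library a only SHPK_E021 of the introns of interest passed in the share fit, and without TMG library b only SRRM1_E019.

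At TMG 6 h, 0 of the 7 passed and 0.167% of 4181 introns passed as higher. NRDE2_E003 was the 1 member whose groups did not overlap, where 8.16% of introns lay above. The median log2 change was 0.20 over the members and 0.17 over all introns.

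**Figure D2:**
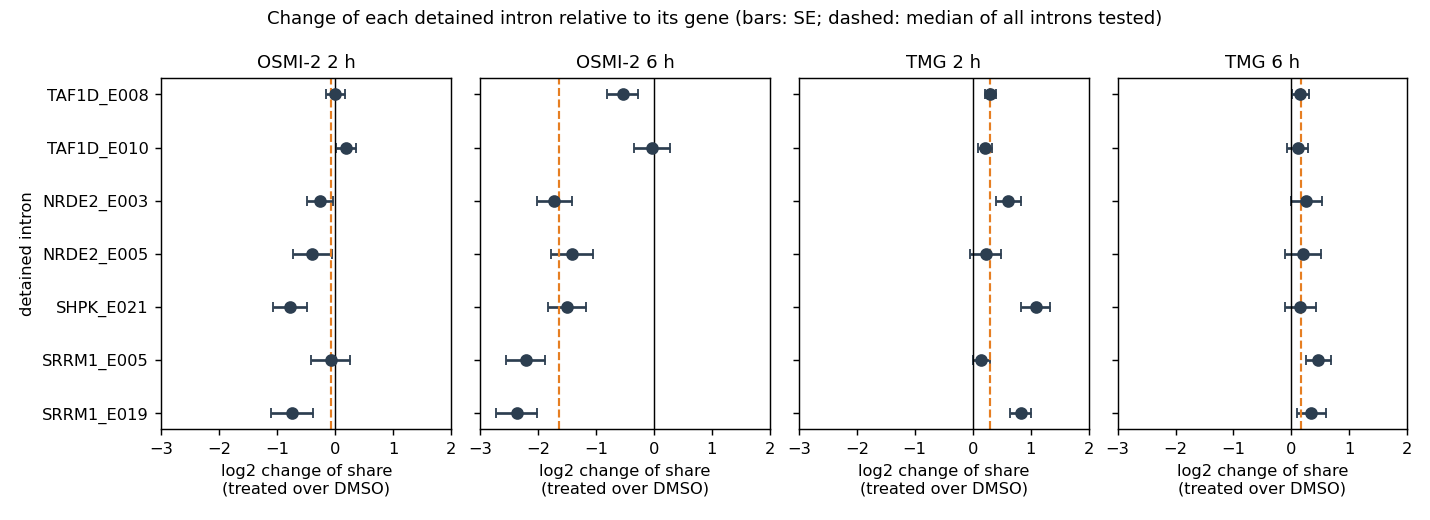
Log2 change of the share of each of the 7 detained introns (rows), treated over DMSO, with bars of 1 SE, in the 4 comparisons (panels), with the median of all introns tested as a dashed line. At OSMI-2 6 h, 5 introns lie at or below -1.42 and the TAF1D introns at -0.54 and -0.03, while at TMG 2 h SHPK_E021 (1.09) and SRRM1_E019 (0.83) lie farthest to the right.

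**Figure D3:**
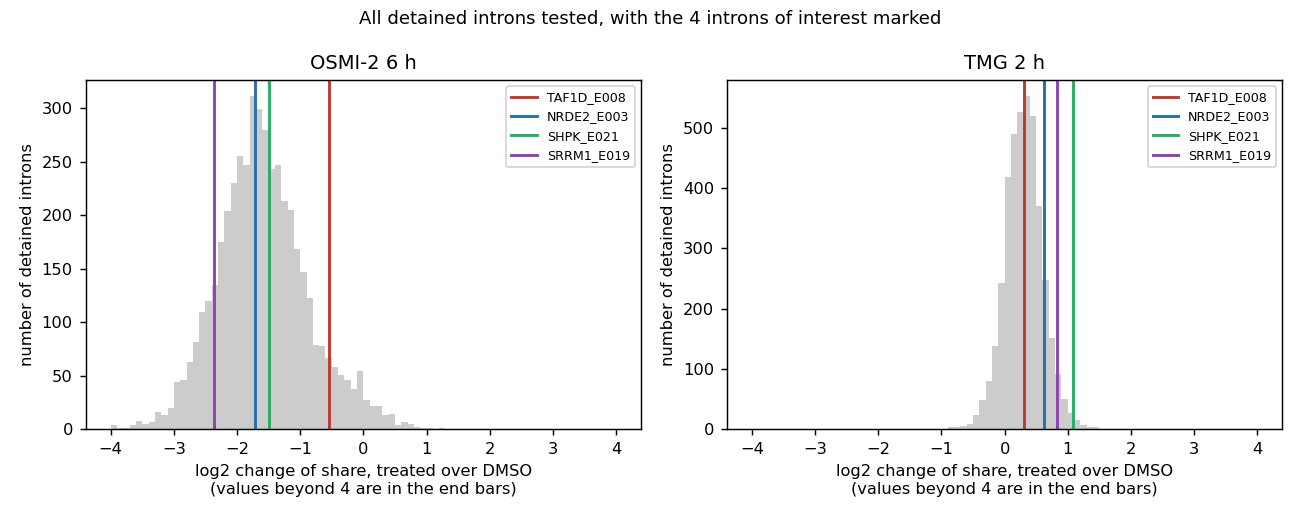
Number of detained introns (y axis) by log2 change of share (x axis, bars 0.1 wide) at OSMI-2 6 h and TMG 2 h, with the introns of interest as lines. TAF1D_E008 lies in the upper tail at OSMI-2 6 h and near the middle at TMG 2 h, and SHPK_E021 lies in the upper tail at TMG 2 h.

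The bins on either side of an intron were set beside it. At OSMI-2 6 h, NRDE2_E002 went from 4.30% to 4.42% and NRDE2_E004 from 5.95% to 6.42%, while NRDE2_E003 between them went from 12.3% to 3.67%. The 14 NRDE2 bins outside detained introns that averaged 10 counts or more had log2 ratios of mean share from -0.12 to 0.15. The range was -1.13 to 0.32 over 21 such bins of SRRM1, with SRRM1_E004 the lowest. It was -1.18 to 0.61 over 25 of the SHPK group, TRPV1 bins included, and -0.59 to 0.39 over 14 of TAF1D. Around SRRM1_E019, SRRM1_E018 and SRRM1_E020 had log2 ratios of -0.06 and -0.01. For NRDE2_E003 and SRRM1_E019 the ratios of the adjoining exon bins lay much nearer 0 than that of the intron between them.

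At OSMI-2 6 h the other bins also differed in TAF1D, along the gene, and in the SHPK group, which holds TRPV1 too. In that group log2 ratios were -1.02 to -0.22 over the 14 TRPV1-width bins and 0.07 to 0.61 over the 5 SHPK-width bins. Its spread is thus not that of SHPK alone. TAF1D bins ran from -0.59 at TAF1D_E002, near the 3′ end, to 0.39 in the bins towards the 5′ end, with TAF1D_E007 at -0.07 and TAF1D_E009 at 0.07 on either side of TAF1D_E008. In the authors' deposited table, 5 of 16 TAF1D bins passed an adjusted p of 0.05, of which 1 was a detained intron. Of the 26 bins of the SHPK group 9 passed, of which 1 was a detained intron. The TRPV1-width bins SHPK_E013 and SHPK_E015 were among the others. There, too, 2 of 17 NRDE2 bins and 2 of 24 SRRM1 bins passed in the authors' deposited table, all 4 of them detained introns. Of all bins with an adjusted p, exon bins included, 6.46% passed at OSMI-2 6 h. The share among detained introns alone was not counted, and in the share fit 89.2% of introns passed as lower. At TMG 2 h the authors' deposited table had 1 SHPK bin and 1 SRRM1 bin that passed, SHPK_E021 and SRRM1_E019. None passed in TAF1D or NRDE2. Of all bins with an adjusted p, exon bins included, 0.247% passed at TMG 2 h, and detained introns alone were again not counted. No bin of the 4 genes passed in the authors' deposited table at OSMI-2 2 h or TMG 6 h. Among bins with an adjusted p, 0.0111% and 0.0635% passed there. At TMG 6 h only 9 of 17 NRDE2 bins and 6 of 26 bins of the SHPK group had an adjusted p. NRDE2_E003, NRDE2_E005 and SHPK_E021 had none, so they could not pass.

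**Figure D4:**
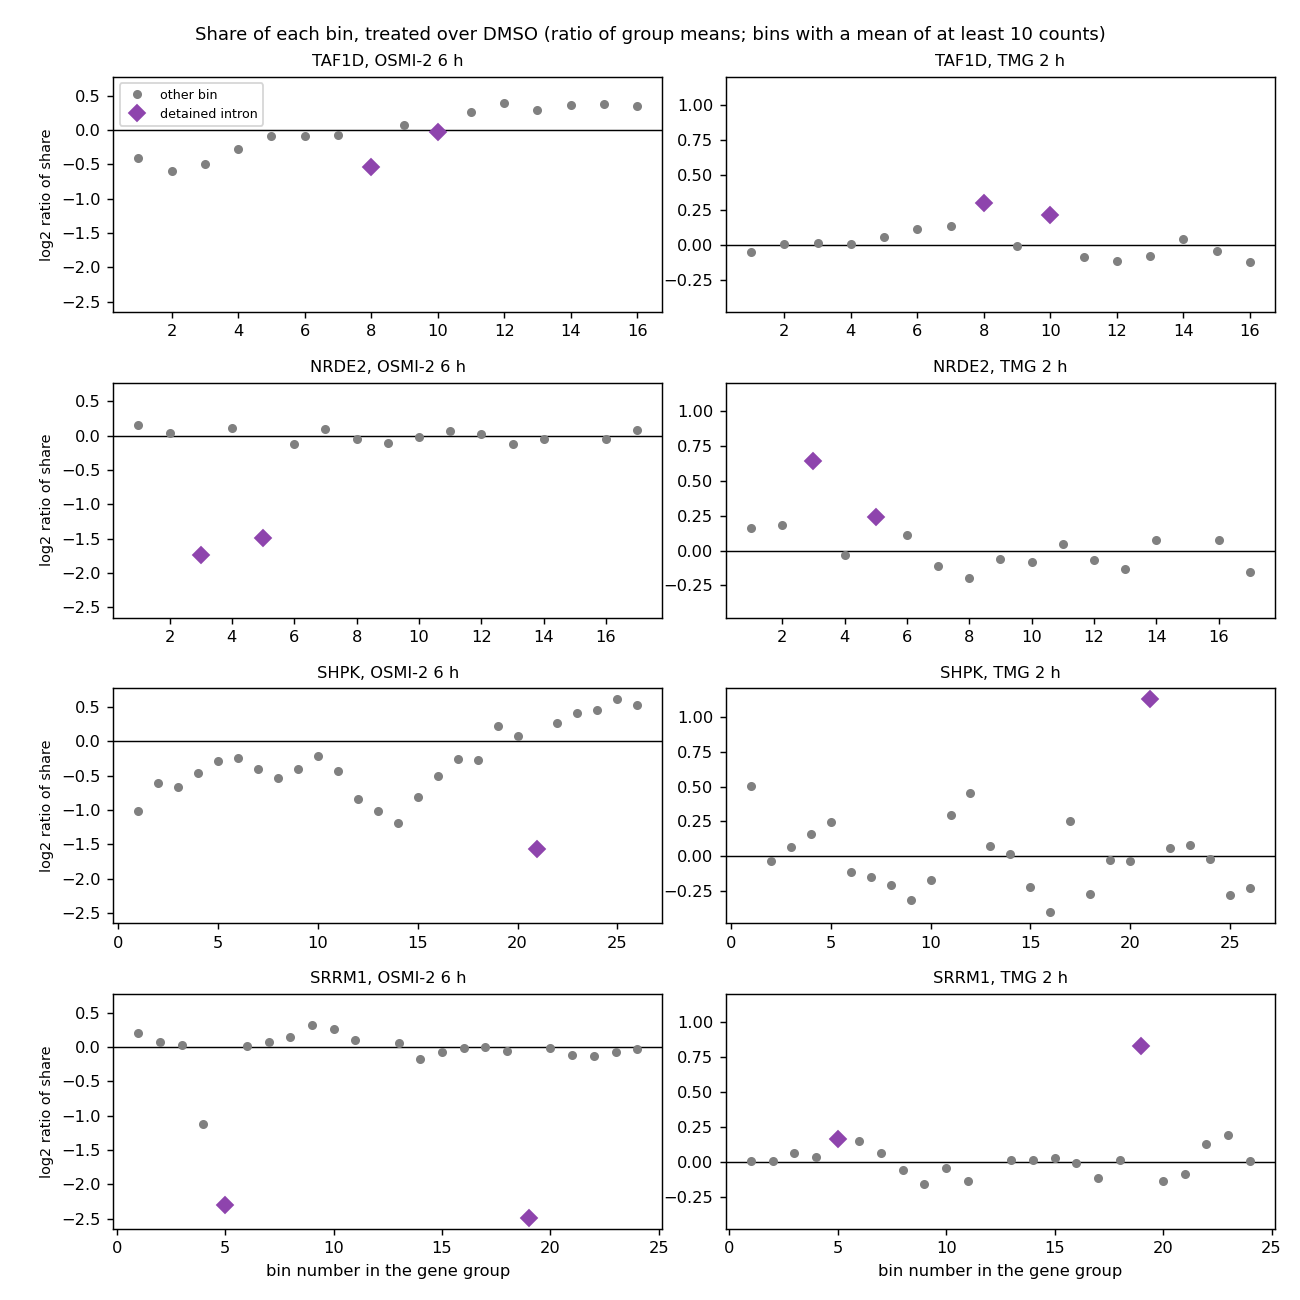
Log2 ratio of mean share, treated over DMSO (y axis), of each bin of the 4 genes in coordinate order (x axis, bin number), with detained introns as diamonds, at OSMI-2 6 h and TMG 2 h. The NRDE2 and SRRM1 introns drop below the exon bins at OSMI-2 6 h, while the TAF1D exon bins slope along the gene. Those of the SHPK group at OSMI-2 6 h, which include TRPV1 bins, do not follow 1 slope, with SHPK_E014 the lowest (-1.18) and SHPK_E025 the highest (0.61).

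Levels of the host genes were read from their other bins. They are given in CPM, counts scaled to the library total, over bins outside detained introns. TAF1D averaged 35.1 ± 2.34 CPM (SD, n = 3) in DMSO and 27.4 ± 4.65 in OSMI-2 at 2 h. At 6 h its 3 DMSO libraries spread from 24.2 to 74.7 CPM, 1 of them far above the others, and OSMI-2 averaged 26.9 CPM. With TMM scaling its log2 change was -0.21 ± 0.32 (SE), and without DMSO library a, the high one, it turned to 0.33. NRDE2 averaged 33.1 ± 4.08 in DMSO and 20.1 ± 3.04 CPM (n = 2) in OSMI-2 at 6 h, and with TMM scaling its log2 change was -0.34 ± 0.33 (SE). SHPK and SRRM1 had scaled log2 changes of 0.37 ± 0.29 and 0.33 ± 0.31 there, and SRRM1 passed as higher without DMSO library a. The SHPK values in this paragraph are those of the whole group, TRPV1 included. Its TRPV1-width bins averaged 24.8% of the counts outside the intron in DMSO and 17.6% in OSMI-2 at 6 h. By edgeR's quasi-likelihood test none of the 4 genes passed at OSMI-2 2 h or 6 h, where 0% and 4.94% of genes passed. At OSMI-2 2 h, 160 of all genes had an unadjusted p under 0.05 by edgeR, and DESeq2 called 1. At TMG 2 h TAF1D rose from 85.9 to 106 CPM (log2 change 0.26 ± 0.05 SE) and NRDE2 from 30.5 to 36.2 CPM (0.21 ± 0.07), 2 of the 4 genes, where 7.91% of genes passed. TAF1D passed whichever of the 6 libraries was left out, and NRDE2 passed only without DMSO library c among these. SHPK and SRRM1 had log2 changes of -0.06 ± 0.07 and 0.12 ± 0.05 there. At TMG 6 h none of the 4 passed, where 6.03% did.

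Introns whose log2 share followed that of each intron of interest most closely were ranked by Pearson correlation over the 23 libraries, among introns averaging 50 counts or more. For TAF1D_E008 they were CCNL1_E008 (0.94), TXLNA_E011 (0.92) and BRAT1_E014 (0.92), with a median of 0.69 over 1422 introns. For NRDE2_E003 they were VCL_E021 (0.96), YTHDF1_E003 (0.94) and CKAP2_E009 (0.94), with a median of 0.39. For SHPK_E021 they were ZNF282_E008 (0.94), MCM2_E007 (0.93) and MECR_E005 (0.92), with a median of 0.77 over 1423. For SRRM1_E019 they were EXOC3_E009 (0.96), GRAMD1A_E009 (0.95) and MAN2C1_E014 (0.95), with a median of 0.76.

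Other genes of the 4 pathways were read from lists, namely 11 polymerase I genes, 15 of the nuclear exosome and its cofactors (12 in the tables), 7 of the pentose phosphate pathway and 10 exon junction and SR-related genes. At OSMI-2 6 h all detained introns tested in these lists passed as lower by limma: 7 of 7, 9 of 9, 3 of 3 and 8 of 8, against 89.2% of all introns. Examples are POLR1E_E007 (-2.13), EXOSC10_E009 (-2.75), PGD_E004 (-2.23) and SRRM2_E023 (-2.31). TAF1D_E008 had a smaller change than these. By edgeR, 4.94% of all genes passed at OSMI-2 6 h, in either direction. Among the list genes, EXOSC4, a core exosome subunit (1.03), and PGLS, the lactonase of the pentose phosphate pathway (0.95), passed as higher there. Both passed without DMSO library a and neither without any other single library.

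At TMG 2 h, 1 of 7 exosome introns, EXOSC2_E008 (0.37), and 1 of 8 exon junction introns, SRRM2_E023 (0.39), passed as higher by limma, and 0 of 6 and 0 of 3 in the polymerase I and pentose phosphate lists, where 10.2% of all introns passed as higher. With limma's default trend or a fit of all libraries, 5 or 6 introns of the whole table passed. In the main fit, list medians were 0.25 (exosome), 0.23 (exon junction), -0.11 (polymerase I) and 0.09 (pentose phosphate), against 0.30 over all introns. Of the genes, PNN (0.16) and SRRM2 (0.20) passed as higher and EXOSC5 (-0.22) and PGLS (-0.21) as lower by edgeR. They were 2 of 10 exon junction, 1 of 12 exosome and 1 of 7 pentose phosphate genes, with 0 of 11 polymerase I genes. Of all genes, 7.91% passed in either direction. None of the named genes passed without TMG library b or TMG library c. At OSMI-2 2 h no gene or intron of the lists passed. At TMG 6 h, where 6.03% of all genes passed in either direction, only PGLS did, as lower (-0.37). It did not pass without TMG library b or TMG library c.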

How the data were processed

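The members and gene lists were chosen with earlier results of these data known. Reads were aligned to hg19 with STAR, per the submitters' processing notes. The deposited tables hold whole-number counts per exon or intron bin and library, with no normalization, and the authors' p-values and log2 fold changes of bin usage, per the file headers. The 23 libraries held 39.5 M to 100.2 M counts. Columns carry letters and no replicate number, and 1 labelled OSMI-2 6 h sample was not analysed here.

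From the counts, an intron's log2((count + 1)/(gene count + 1)) was compared within each table by limma 3.58.1 (mean counts of at least 10), and intron and gene counts by edgeR 4.0.16 with TMM scaling over genes and introns, in R 4.3.3. P-values were adjusted by Benjamini-Hochberg over all introns or genes tested, with a threshold of 0.05. The design named limma's trended spread. The trend was first run on the mean log2 share, limma's default, which recovered fewer of the changes put into simulated data than the level first required. That requirement was at first lowered so that the default passed. The trend was tied to the intron's mean log2 count only after the default's 5 calls at TMG 2 h had been seen to differ from an earlier analysis of these tables, and it gave 412 calls, so the simulation was not the only reason for the choice. Both are reported. DESeq2 1.42.0, other scalings, filters and denominators were alternatives. Genes named were all members, their neighbouring bins, the 3 introns most alike to each and list genes past the threshold (at most 2 in each direction), of which 1 gene is not reported here. Introns were matched to GENCODE v29 (GRCh38) by width, and sequences come from its transcripts.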

Additional observations from a re-analysis of the deposited data

Results flagged for a closer look

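In several places every library moved one way under OSMI-2 and the opposite way under TMG, relative to the mean of its own DMSO group. The difference was not tested in any of them, and how many of all introns or genes did the same was not counted. Over all introns the median log2 change of share was -0.08 and -1.63 under OSMI-2 at 2 h and 6 h. Under TMG it was 0.30 and 0.17, so opposite directions were the general pattern of the introns. The difference is given as the log2 ratio of means under OSMI-2 minus that under TMG. At 2 h it was -1.93 for the share of SHPK_E021 (-0.80 and 1.13) and -1.65 for SRRM1_E019 (-0.82 and 0.83). For gene levels at 2 h it was -0.66 for TAF1D, -0.65 for NRDE2 and -0.25 for SRRM1. At 6 h the shares differed by -1.99 for NRDE2_E003 (-1.74 and 0.24), -2.72 for SRRM1_E005, -2.84 for SRRM1_E019 and -0.68 for TAF1D_E008. For gene levels at 6 h it was -0.83 for TAF1D, -0.98 for NRDE2 and -0.20 for SRRM1. These gene values are unscaled CPM against the DMSO mean. With TMM scaling SRRM1 was higher under OSMI-2 at 6 h as well, by 0.33, and TAF1D was at -0.21, which turned to 0.33 without DMSO library a, so neither keeps opposite directions under these settings. Treated and DMSO shares overlapped for SHPK_E021 and SRRM1_E019 at OSMI-2 2 h, and for TAF1D_E008, SRRM1_E005 and SRRM1_E019 at TMG 6 h. Gene levels overlapped for SRRM1 under OSMI-2 at both times and for TAF1D under both drugs at 6 h. The 6 h values rest on 2 OSMI-2 libraries and on the DMSO 6 h group that stood apart.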

How the results depend on the processing

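No paired analysis was possible because the columns carry letters and no replicate numbers. Of 344 log2 changes of the 4 introns of interest under alternatives, libraries left out included, 325 moved by less than the spread between replicates, 17 by more and 2 reversed. In the share fit, leaving out 1 of 3 libraries of a group cannot move a change by more than that spread. The setting with SHPK bins alone leaves the other introns of interest as they were. The count of 325 is therefore no measure of how firm the values are. The reversals were TAF1D_E008 (0.77) and SHPK_E021 (0.31) as counts at OSMI-2 6 h with TMM over introns only, a scaling that centres the introns themselves and left 770 introns past the threshold instead of 4063. Introns past the threshold in the share fit at TMG 2 h numbered 412, against 261 with flanking bins as the gene value, 6 in a fit of all libraries and 5 with limma's default trend (added after seeing the data). The last 2 left none of the introns of interest past the threshold, and the default trend also ended that of TAF1D_E008 at OSMI-2 6 h. With flanking bins TAF1D_E008 no longer passed at TMG 2 h. At TMG 6 h, 8 became 5, 3 and 4, and at OSMI-2 2 h, 2 became 9 in the fit of all libraries. As counts, 398 introns at TMG 2 h became 77 with TMM over introns and 165 with DESeq2, and 8 at TMG 6 h became 14 with TMM over introns. Genes at OSMI-2 6 h numbered 617, against 943 with median-of-ratios scaling and 1239 with DESeq2, and 0 at OSMI-2 2 h became 1 with DESeq2. The cause was not tested. Leaving out 1 library gave, for shares, 2 to 5 (OSMI-2 2 h), 3776 to 4147 (6 h), 29 to 531 (TMG 2 h) and 5 to 273 (6 h); for counts, 2 to 7, 3367 to 4069, 60 to 562 and 6 to 332; for genes, 0 to 0, 0 to 5268, 243 to 1212 and 89 to 1248. Genes at OSMI-2 6 h were 5268 without DMSO library a and 0 without either OSMI-2 library, which leaves 1 treated library assumed to vary like the DMSO group. Introns at TMG 6 h rose to 273 in the share fit without DMSO library b. SHPK_E021 and SRRM1_E019 are limited by their low counts.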
